A study of Mus musculus with 12 samples.

Results

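Hypoxia-inducible factor (HIF) subunits and Vhl were followed in RNA-seq data of mouse embryonic fibroblast (MEF) cells. The 6 genes were chosen by name. They are the HIF alpha subunits Hif1a, Epas1 and Hif3a, the beta subunits Arnt and Arnt2, and Vhl, whose product marks alpha subunits for destruction. All 6 are listed in both tables of the series, among 43280 entries in the table of 2MUT and Control cells and 23930 entries in the table of the 2-HG experiment. C57BL/6 embryos of embryonic day 13.5 were the source of the MEF cells, which had become immortal spontaneously on repeated passage. 2MUT cells carried a retroviral vector for FLAG-tagged human IDH2 with a cancer-associated hotspot mutation and had been selected with puromycin, and Control cells had received the vector without IDH2. In the other experiment MEF cells without a transgene were cultured for 24 h with 300 μM membrane-permeant 2-HG, the metabolite that mutant IDH2 makes, giving the 2-HG(+) group. The 2-HG(-) cells were given DMSO for 24 h according to the sample labels, whereas the description of the experiment calls them non-treated. Each of the 4 groups has 3 libraries. Nothing in the labels says that these came from separate cultures, so p-values measure the spread between these libraries, which may be technical.

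A HIF is a pair of an alpha and a beta subunit that binds DNA at hypoxia response elements. In cells with enough oxygen, prolyl hydroxylases of the Egln family modify the alpha subunit, the Vhl protein binds the modified form, and a ubiquitin ligase built on elongins and a cullin marks it for the proteasome. The hydroxylases use α-ketoglutarate, and 2-HG resembles it. Control of the alpha subunit thus lies largely at the protein level, whereas only RNA was measured here. In fibroblasts Hif1a and Arnt are generally the main pair. Epas1, which encodes HIF-2α, is best known from endothelium, and Arnt2 from neurons and kidney.

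The stretches just upstream of a RefSeq transcription start are shown for Hif1a, Arnt and Arnt2, because the RNA of these genes changed differently in the 2 experiments. They are RefSeq sequences of the GRCm38.p6 build, written 5′ to 3′ on the strand of the gene, and capitals mark the core of a hypoxia response element, ACGTG or GCGTG, on either strand. Hif1a lies on the forward strand at chr12:73907617-73907866, Arnt on the forward strand at chr3:95434140-95434387 and Arnt2 on the reverse strand at chr7:84410177-84410288. The window for Arnt leaves out 2 bases, and that for Arnt2 138 bases, that fall in an annotated exon. The start used for Hif1a lies inside the gene as GENCODE M21 draws it (chr12:73901375-73947530), which begins further upstream, so the window is at an internal start of that model.
Hif1a: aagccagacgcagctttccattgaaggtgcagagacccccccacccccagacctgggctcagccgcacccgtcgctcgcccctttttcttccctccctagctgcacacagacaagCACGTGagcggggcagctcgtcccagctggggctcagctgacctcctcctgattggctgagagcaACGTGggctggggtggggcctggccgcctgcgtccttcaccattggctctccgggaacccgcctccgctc
Arnt: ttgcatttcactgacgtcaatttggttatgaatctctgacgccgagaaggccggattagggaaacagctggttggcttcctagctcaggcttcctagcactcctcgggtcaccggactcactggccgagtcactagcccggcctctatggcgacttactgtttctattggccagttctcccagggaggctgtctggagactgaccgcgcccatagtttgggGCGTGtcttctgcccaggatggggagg
Arnt2: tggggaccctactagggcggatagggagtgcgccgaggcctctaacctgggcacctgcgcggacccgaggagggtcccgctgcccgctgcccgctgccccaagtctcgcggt
In the 250 bases before the RefSeq start, Hif1a had 3 matches, all of them ACGTG. A pair of them overlap in the palindrome that starts at position -135, which reads ACGTG on both strands, and the other starts at -70. Arnt had a single match, GCGTG at -29, and Arnt2 had none. ACGTG on either strand occurs in 16.6% of 32851 such windows of mouse promoters, either motif in 38.6%, and 3 or more matches in 6.58%. The Hif1a window is 66.4% G and C, against a median of 52.4% over these windows. These shares are not matched for that content. Windows were found for 5 of the 6 genes. That of Hif3a held 2 matches, GCGTG on either strand at -230 and -186, and that of Vhl held none. A match describes the letters and does not show that a HIF binds there.

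The libraries held 6472439 to 7313602 reads on genes in the 2MUT experiment and 14959318 to 18363768 in the 2-HG experiment. Values are RPM, the reads of a gene per 1000000 reads on genes, and 3 reads, taken as the floor of detection, were worth 0.41 to 0.464 RPM in the former and 0.163 to 0.201 RPM in the latter. These limits cover counting error only. Fibroblast markers were present, with a summed level of 15040 to 17010 RPM in Control, 13378 to 13822 RPM in 2MUT, 21646 to 23290 RPM in 2-HG(-) and 15256 to 16280 RPM in 2-HG(+) libraries, although Lum was at or under 1.57 RPM in every library. The sum rests on the most abundant markers, and single markers moved far more. In 2MUT 7 of the 9 tested fell (limma adjusted p under 0.05), against 17.3% of all genes. Col3a1 fell to 0.194, Thy1 to 0.301, Vim to 0.407 and Dcn to 0.549 of the Control mean, and Fn1 rose to 1.34 times it. With 2-HG 5 of 9 fell, against 16.7% of all genes. Pdgfrb fell to 0.345, Pdgfra to 0.381, Col3a1 to 0.391 and Dcn to 0.409 of the 2-HG(-) mean, and Thy1 rose to 1.89 times it. The part of these shifts in the subunit changes was not tested. The 6 endothelial markers summed to at most 2.94 RPM in any library, and among them Tek was at 0 in all libraries of the 2MUT experiment and at most 0.12 RPM in the other. Mouse Idh2 had a mean of 77.3 RPM (SD 5.54) over the Control libraries and of 49.6 RPM (SD 6.39) over the 2MUT libraries. Whether the mouse target reads the human transgene is not given in the sources used here, so this value does not check the labels. Epithelial, skeletal muscle and adipocyte markers summed to at most 2.56 RPM. The first 2-HG(+) library stood apart in its HIF target genes, as described with those genes, and the calls lost or gained without it are given there.

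Hif1a encodes the alpha subunit that most cells degrade when oxygen is present. It had 83.0, 84.3 and 76.6 RPM in the Control libraries and 267, 232 and 256 RPM in the 2MUT libraries. Every 2MUT library was far above every Control library, and the libraries within a group lay close together. The means were 81.3 ± 4.15 and 252 ± 17.5 RPM (SD, n = 3 each). On the log2(RPM + 1) scale the rise was 1.62 (SE 0.10, 95% interval 1.40 to 1.84), or 3.07-fold, with an adjusted p of 1.27e-06 in limma with Benjamini-Hochberg adjustment over 11065 genes. It was the 88th largest rise among them. In that comparison 16.5% of the genes tested were higher and 17.3% lower, and 23.5% had all 3 2MUT libraries above all 3 Control libraries. The data are from bulk cultures, in which more cells of a kind and more RNA per cell cannot be told apart. The 5 leukocyte markers also summed higher in 2MUT, at 34.5 to 44.9 RPM against 11.2 to 14.8 RPM in Control, with Cd14 making up most of the sum (38.5 against 12.2 RPM on average). Csf1r was also higher, at 1.70, 1.46 and 0.688 RPM in 2MUT and 0, 0.57 and 0 RPM in Control, whereas Emr1 was lower on average, at 0.183 against 0.533 RPM (4 and 11 reads), with overlap. Ptprc, the defining marker of leukocytes, was at 0 in all 2MUT libraries and at most 0.142 RPM in Control, and Itgam was at most 0.309 RPM. Their part in the result was not tested.

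With 2-HG, no such rise of Hif1a was measured. The 2-HG(-) libraries had 299, 373 and 312 RPM and the 2-HG(+) libraries 388, 319.8 and 289.9 RPM, so that the groups overlapped. The highest value of the experiment was in the first 2-HG(+) library and the lowest in the third. Means were 328 ± 39.8 and 332.5 ± 50.2 RPM, and the log2 difference was 0.02 (95% interval -0.28 to 0.31, limma adjusted p = 0.94 over 10384 genes). Without the first 2-HG(+) library it was -0.10 (limma adjusted p = 0.57). All 3 2-HG(+) libraries lay above all 3 2-HG(-) libraries in 22.2% of genes, Hif1a not among them. The interval leaves out a change of the size seen in 2MUT cells. The difference between the changes in the 2 experiments was itself tested over the 12 libraries, and Hif1a rose more in 2MUT by 1.60 on the log2 scale (SE 0.17, 95% interval 1.24 to 1.96, limma adjusted p = 6.6e-06 over 9594 genes). In that test 19.9% of genes were called in the same direction. Within the 2-HG experiment the groups did not differ beyond their spread. The tables were normalized separately and list different entries, so no test spans their levels and Hif1a levels are not compared between them. Other genes lay far apart in Control and 2-HG(-), such as Car9 (297 and 2.77 RPM) and Pdk1 (4.97 and 159 RPM). The plot of RPM by library shows the values of the 5 genes with reads.

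**Figure D1:**
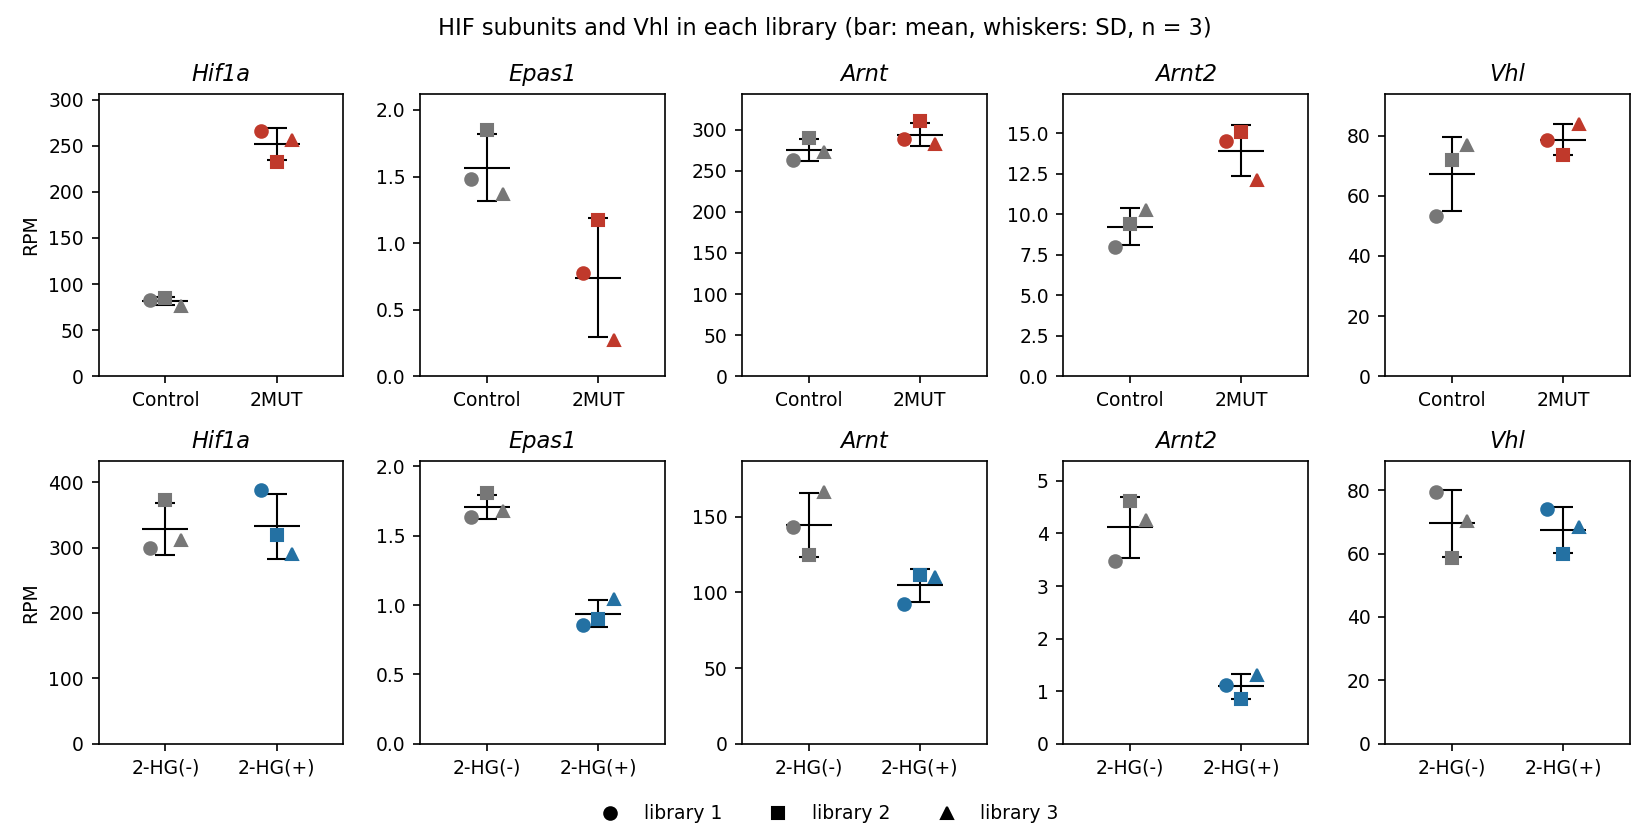
RPM (vertical axis, from 0, its scale differing between panels) of Hif1a, Epas1, Arnt, Arnt2 and Vhl in each library, with the 2MUT experiment in the upper row and the 2-HG experiment in the lower row; symbols are libraries 1, 2 and 3, the wide bar is the mean and the whiskers are the SD. Hif1a separates Control (76.6 to 84.3 RPM) from 2MUT (232 to 267 RPM) and overlaps in the 2-HG experiment, while Arnt2 is higher in 2MUT and lower in 2-HG(+) libraries.

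Epas1, the gene for HIF-2α, was close to the floor of detection in these fibroblasts. In the 2MUT experiment it had 1.48, 1.85 and 1.37 RPM in Control and 0.773, 1.17 and 0.275 RPM in 2MUT libraries, which is 33 reads in Control and 15 in 2MUT in all. The third 2MUT library held only 2 reads. Although the groups did not overlap, which was so for 24% of all genes tested with 2MUT below Control, the log2 difference of -0.59 (SE 0.28, 95% interval -1.20 to 0.02) did not pass the threshold (limma adjusted p = 0.123). The size depends on the added value and on 1 library, being -1.15 with 0.1 RPM added, -1.08 in edgeR, -1.09 in DESeq2 and -0.38 without the third 2MUT library, none of them past the threshold. In the 2-HG experiment Epas1 had 1.63, 1.81 and 1.68 RPM without and 0.859, 0.902 and 1.05 RPM with 2-HG. These are 85 and 44 reads in all, with no overlap, a separation found with 2-HG(+) below for 24.1% of genes. The log2(RPM + 1) difference was -0.48 (SE 0.14, 95% interval -0.80 to -0.17, limma adjusted p = 0.026), in a comparison in which 16.7% of 10384 genes were lower and 16.1% higher. The call did not hold when any of 5 of the 6 libraries was left out (limma adjusted p 0.044 to 0.086 over the 6), nor with DESeq2 on the recovered reads (log2 fold change -0.85, adjusted p = 0.076). Epas1 passed the filter of 1 RPM over the 6 libraries only through the group in which it was higher, 2-HG(-) or Control, which favors a difference, so these tests are given as a description. The changes in the 2 experiments did not differ detectably (difference -0.11, 95% interval -0.71 to 0.50, limma adjusted p = 0.79), an interval that also allows a difference as large as either change. Endothelial markers were at the low sums given above in every group. Hif3a, the gene for HIF-3α, is listed at 0 in all 12 libraries and was not tested. Rbx1 and Hsp90aa1, genes of general use in cells, were also at or near 0 in the 2MUT table, so a listed 0 does not show that a gene is silent.

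The balance between the alpha subunits was followed as the log2 ratio of Epas1 to Hif1a within each library. Because each gene is read from its own amplicon, the ratio is not a ratio of molecules, and only its change between groups is read. It was -5.08, -4.90 and -5.03 in Control and -7.24, -6.75 and -7.66 in 2MUT libraries, a change of -2.21 (SE 0.27). The ratio was lower in 3 of 3 2MUT libraries than in any Control library. In the 2-HG experiment it was -6.83, -7.06 and -6.87 without and -7.71, -7.40 and -7.15 with 2-HG, a smaller change of -0.50 (SE 0.18), again with no overlap. A two-sided exact permutation test gave p = 0.1 in each experiment, the smallest that 3 against 3 libraries can give and the value that any 2 groups without overlap have. Since Epas1 passed the filter only through the group in which it was higher, and its reads in the third 2MUT library were under the floor, nothing is read from this test. With an added value of 0.1 RPM the changes were -2.78 and -0.82.

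Arnt encodes HIF-1β, the partner shared by HIF alpha subunits and by the aryl hydrocarbon receptor. In Control it had 263, 290.0 and 273 RPM and in 2MUT 288, 310.4 and 283 RPM, with overlapping groups. The means of 275 ± 13.5 and 294 ± 14.4 RPM differed by 0.09 on the log2 scale (95% interval -0.10 to 0.29, limma adjusted p = 0.44). In the 2-HG experiment Arnt had 143, 124 and 166 RPM without and 92.3, 111 and 110.2 RPM with 2-HG. All 3 2-HG(+) libraries were below the 2-HG(-) ones, and the first was the lowest. Arnt fell by 0.46 on the log2 scale, from 145 ± 20.9 to 105 ± 10.7 RPM (SE 0.13, 95% interval -0.74 to -0.17, limma adjusted p = 0.022). This call was lost without the first 2-HG(-) library (limma adjusted p = 0.055), without the third (0.093) and without the first 2-HG(+) library, where the change was -0.37 (0.055). The difference between the experiments was 0.55 (SE 0.16, 95% interval 0.21 to 0.90, limma adjusted p = 0.014) and passed the threshold whichever of the 12 libraries was left out.

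Arnt2, the beta subunit best known from neurons, moved in opposite directions in the 2 experiments. It had 7.99, 9.40 and 10.3 RPM in Control and 14.5, 15.1 and 12.1 RPM in 2MUT libraries, with no overlap. The rise from 9.22 ± 1.14 to 13.9 ± 1.58 RPM was 0.55 on the log2(RPM + 1) scale (SE 0.18, 95% interval 0.16 to 0.93, limma adjusted p = 0.033). It passed the threshold in only 2 of 6 fits that left out a library, those without Control 3 and without 2MUT 3 (limma adjusted p 0.029 to 0.11 over the 6). In the 2-HG experiment Arnt2 had 3.49, 4.61 and 4.26 RPM without and 1.12, 0.842 and 1.31 RPM with 2-HG. Every 2-HG(+) library was under every 2-HG(-) library by more than the spread within either group. Arnt2 fell by 1.29 on the log2(RPM + 1) scale (SE 0.16, 95% interval -1.65 to -0.93, limma adjusted p = 0.00031), the 234th largest fall among 10384 genes. The added value of 1 RPM understates the change of so low a gene, and edgeR on the recovered reads gave -1.90. All 6 fits without a library kept this call. The test of the difference between the experiments gave 1.84 (SE 0.23, 95% interval 1.34 to 2.33, limma adjusted p = 3.3e-05). The summed level of the 4 neuronal markers was 5.48 to 8.26 RPM in Control, 2.64 to 4.48 RPM in 2MUT, 6.42 to 8.22 RPM in 2-HG(-) and 5.29 to 5.95 RPM in 2-HG(+) libraries. The sum was thus lower in 2MUT, where Arnt2 was higher, and lower with 2-HG, where Arnt2 was lower too. Snap25 was at 0 in all 12 libraries. Syt1, which made up most of the sum in the 2MUT experiment, fell by 0.90 there (limma adjusted p = 0.011). With 2-HG its means were 1.63 RPM without and 0.578 RPM with 2-HG, and since it passed the filter only through 2-HG(-) no test is read for it. Their part in the change with 2-HG was not tested.

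Arnt2 shares its locus with an antisense gene that moved the same way. In the GENCODE M21 annotation of GRCm38, Arnt2 lies on the reverse strand at chr7:84246278-84410176 and Gm30873, chosen here after its values were seen, on the forward strand within it at chr7:84338095-84347869. Gm30873 is listed in the 2-HG experiment only. It had 10.8, 11.3 and 9.37 RPM in 2-HG(-) and 2.18, 2.10 and 2.94 RPM in 2-HG(+) libraries, and fell by 1.76 on the log2(RPM + 1) scale (SE 0.15, limma adjusted p = 3.9e-05). Neither the use of strand in the counting nor the positions of the amplicons are given in the sources used here. The overlap is one of gene spans, and whether an amplicon lies in a stretch that both genes share was not tested. For Hif1a the antisense gene Gm15283 is listed in the 2MUT experiment, at no more than 0.155 RPM in any library.

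Within a library, the log2 ratio of Arnt2 to Arnt rose by 0.45 in 2MUT (SE 0.11) and fell by 0.83 with 2-HG (SE 0.22), without overlap in either experiment. With 0.1 RPM added the change with 2-HG was -1.37. That of Hif1a to Arnt rose by 1.52 in 2MUT (SE 0.11), from -1.75 ± 0.084 to -0.22 ± 0.167, and its groups overlapped in the 2-HG experiment, with a difference of 0.47 (SE 0.29). These ratios are descriptions and were not tested. The plot of ratios between subunits shows them in each library.

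**Figure D2:**
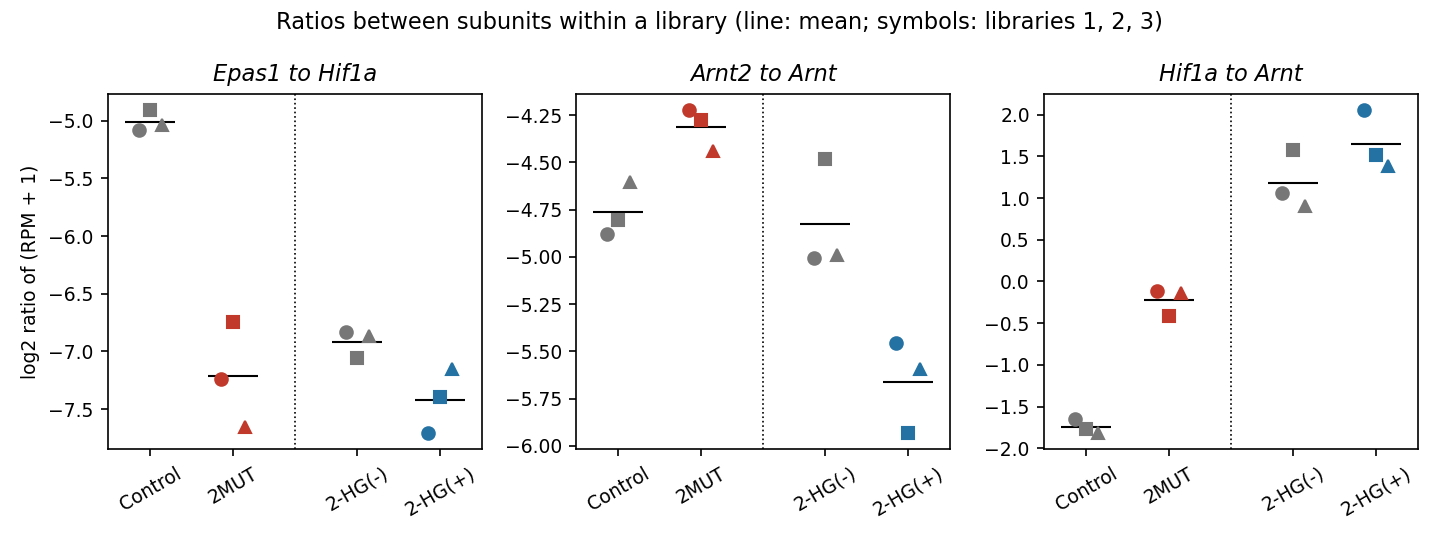
Log2 ratio of RPM + 1 of one subunit to another (vertical axis) within each library of Control, 2MUT, 2-HG(-) and 2-HG(+) cells; symbols are libraries 1, 2 and 3, lines are group means, and the dotted line parts the separately normalized tables. The Epas1 to Hif1a ratio falls by 2.21 in 2MUT and by 0.50 with 2-HG, and the Arnt2 to Arnt ratio moves up in 2MUT and down with 2-HG.

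Vhl, the substrate receptor of the ligase, had no change that passed the threshold. It was 53.3, 71.8 and 76.8 RPM in Control and 78.5, 73.6 and 83.9 RPM in 2MUT libraries. The groups overlapped, and the low first Control library set most of the spread. The log2 difference was 0.24 (95% interval -0.07 to 0.55, limma adjusted p = 0.22), and 0.080 without the first Control library. In the 2-HG experiment Vhl was 79.6, 58.7 and 70.4 RPM without and 74.2, 59.8 and 68.3 RPM with 2-HG, a difference of -0.04 (95% interval -0.34 to 0.26, limma adjusted p = 0.85). The intervals allow a modest change in either experiment, and the difference between the experiments was 0.28 (95% interval -0.17 to 0.73, limma adjusted p = 0.32). Group means were 67.3, 78.7, 69.6 and 67.4 RPM in Control, 2MUT, 2-HG(-) and 2-HG(+). The tables were normalized separately, so levels are not compared between them.

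Of the 5 genes that could be tested, 2 were higher and 0 lower in 2MUT cells. The count of 0 was the same in limma at an unadjusted p under 0.05, in edgeR and in DESeq2. With 2-HG 0 were higher, also at an unadjusted p under 0.05 in limma, in edgeR and in DESeq2, and 3 were lower, Epas1 among them with the limit given above. DESeq2 called 2 lower. These counts are read against 33.8% of all genes called in either direction in 2MUT and 32.8% with 2-HG, and so few genes do not set the subunits apart from the tables. In the test of the difference between the experiments 3 of 5 passed, where 39.4% of all genes did. The plot of changes with their intervals sets the experiments side by side.

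**Figure D3:**
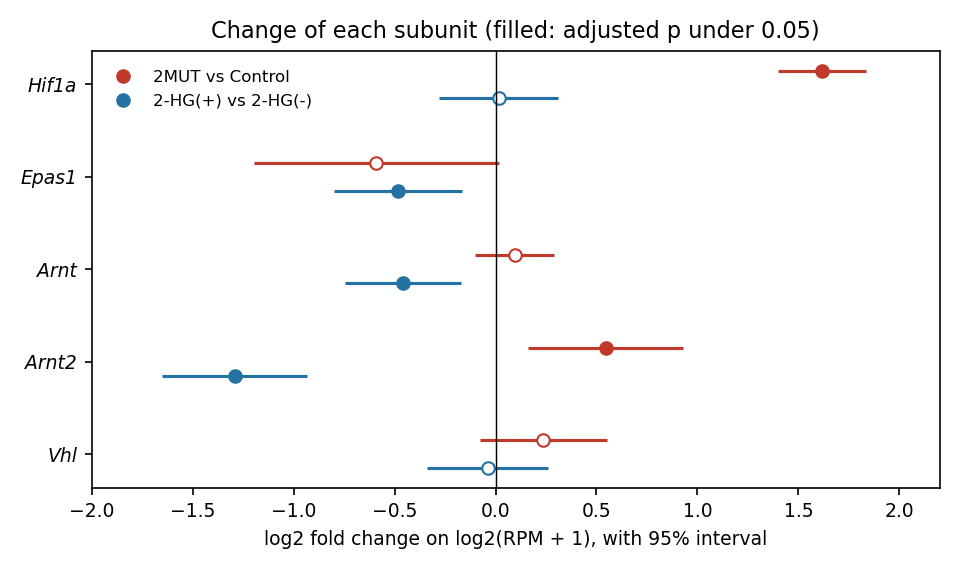
Log2 fold change on log2(RPM + 1) (horizontal axis) of each gene in 2MUT against Control (red) and in 2-HG(+) against 2-HG(-) (blue); points are estimates over 3 libraries a group, lines are 95% intervals, and filled points have a limma adjusted p under 0.05. Hif1a lies at 1.62 in 2MUT and 0.02 with 2-HG, and the intervals of Arnt2 lie on opposite sides of 0.

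Of 3 HIF hydroxylases tested in 2MUT, 1 was higher, against 16.5% of all genes, with a median log2 change of 0.15. Egln1, the main prolyl hydroxylase, rose from 276 ± 48.0 to 383 ± 63.2 RPM in 2MUT (log2 0.47, limma adjusted p = 0.028), and this call was lost in 3 of 6 fits that left out a library. Egln2 was 21.9 and 24.4 RPM (0.15), and Egln3, itself induced by HIF, was 113 and 91.3 RPM (-0.30, limma adjusted p = 0.061). Egln3 was the list's only fall at an unadjusted p under 0.05, and edgeR and DESeq2 called it lower. Hif1an, the asparaginyl hydroxylase FIH, was at 0.655 and 0.969 RPM and not tested. With 2-HG 0 of 4 hydroxylases passed (median -0.13), against 32.8% of all genes, with 0 also at an unadjusted p under 0.05 in limma, in edgeR and in DESeq2. Their log2 differences were 0.33 for Egln1, -0.21 for Egln2, -0.06 for Egln3 and -0.23 for Hif1an. Egln1 was 316 RPM in the first 2-HG(+) library and 196 and 175 RPM in the others, and its difference was 0.07 without the first. Those of Egln2, Egln3 and Hif1an were then -0.076, -0.20 and -0.12.

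The other parts of the Vhl ligase were the elongins Tceb2 and Tceb1, the cullin Cul2 and the RING protein Rbx1. In 2MUT 0 of 3 tested passed, against 33.8% of all genes, also at an unadjusted p under 0.05 in limma, in edgeR and in DESeq2, with log2 differences of 0.20 for Tceb2, 0.18 for Tceb1, the median, and -0.10 for Cul2. Rbx1 was at no more than 0.275 RPM there and is not listed in the other table. With 2-HG, Tceb1 rose from 274 ± 15.5 to 346 ± 37.4 RPM (log2 0.33, limma adjusted p = 0.038), a call kept in 2 of 6 fits without a library, and the differences of Tceb2 and Cul2 were -0.07 and 0.26, the latter being the median. Without the first 2-HG(+) library Cul2 also passed (0.41, limma adjusted p = 0.033).

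Among 12 HIF cofactors and stability factors, the acetyltransferases that HIF recruits went in opposite directions in the 2 experiments. Of 10 tested in 2MUT, 4 were higher and 2 lower, against 16.5% and 17.3% of all genes, with a median log2 change of 0.26 against 0.01 over all genes. Crebbp rose from 111 ± 16.4 to 202 ± 10.5 RPM (0.87, limma adjusted p = 0.00028) and Ep300 from 19.98 ± 2.60 to 34.7 ± 3.09 RPM (0.77, limma adjusted p = 0.0022). Siah1a, a ubiquitin ligase for the prolyl hydroxylases, went from 0.801 to 3.32 RPM (1.24, from 17 reads to 68), but it passed the filter only through 2MUT, which favors a difference. Os9, which binds Hif1a protein and prolyl hydroxylases, rose by 0.45, a call lost in 3 of 6 fits without a library. The chaperone gene Hsp90ab1 fell by 0.48, and Gnb2l1, whose product Rack1 competes with Hsp90 for HIF-1α, fell by 0.31, lost in 1 of 6. With 2-HG 2 of 10 were higher and 4 lower, against 16.1% and 16.7% of all genes, with a median of -0.29 against -0.02. Crebbp fell from 57.8 ± 7.50 to 33.2 ± 6.28 RPM (-0.79, limma adjusted p = 0.0044), Os9 by 0.75, Cited2, which competes with HIF for Ep300 and Crebbp, by 0.50, and Ep300 by 0.36. The calls of Cited2 and Ep300 were each lost in 2 of 6 fits without a library. Siah2, another ligase for prolyl hydroxylases, rose from 21.1 ± 3.56 to 49.99 ± 6.44 RPM (1.21, limma adjusted p = 0.00032), and Senp1, which removes SUMO from HIF-1α, rose by 0.29, a call that no fit without a library kept. In the test of the difference between experiments, where 19.9% of genes were called higher and 19.5% lower, 4 of 9 were higher in 2MUT and 3 lower. Crebbp differed by 1.66 (limma adjusted p = 4.2e-05), Siah1a, with the limit just given, by 1.58, Os9 by 1.20 and Ep300 by 1.13, while Siah2 differed by -0.94, Hsp90ab1 by -0.67 and Senp1 by -0.42.

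Other genes of the bHLH-PAS family, to which the HIF subunits belong, were mostly low, and of 11 in the list 3 could be tested in 2MUT and 5 with 2-HG. In 2MUT 0 of 3 passed (median log2 change 0.03), against 33.8% of all genes, also at an unadjusted p under 0.05 in limma, in edgeR and in DESeq2. With 2-HG 1 of 5 was higher and 1 lower, near the 16.1% and 16.7% of all genes (median -0.17). Ahr, the receptor that uses Arnt as its partner, fell from 114 ± 6.99 to 75.9 ± 6.68 RPM (-0.58, limma adjusted p = 0.0024), a call kept in all 6 fits without a library, and the clock gene Clock rose from 101 ± 10.9 to 132 ± 16.4 RPM (0.38, limma adjusted p = 0.036), kept in 2 of 6. Thus the RNA of Ahr and of its partner Arnt were both lower in 2-HG(+) cells. The difference between the experiments did not pass for Ahr (0.61, limma adjusted p = 0.0504).

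Of 18 HIF target genes tested in 2MUT, 6 were higher, 2 lower and 10 not past the threshold, against 16.5% and 17.3% of all genes, with a median log2 change of 0.08. The largest rises were of P4ha2, a collagen prolyl hydroxylase, from 568 ± 59.1 to 1046 ± 93.6 RPM (0.88), of Ero1l, an oxidase of protein folding, from 111 ± 25.6 to 192 ± 0.98 RPM (0.81), and of Higd1a, a mitochondrial protein, from 50.9 ± 2.32 to 80.9 ± 6.63 RPM (0.66). The other 3, named after their values were seen, were Ndrg1, Bnip3 and Adm, of which the call of Adm was lost in 3 of 6 fits without a library. Car9, the carbonic anhydrase often used as a marker of HIF activity, fell from 297 ± 19.95 to 106 ± 4.57 RPM (-1.48, limma adjusted p = 1.6e-06). Bhlhe40, a transcriptional repressor, fell by 0.79. Hif1a RNA was thus higher in libraries in which 6 target genes were called higher and 2, Car9 among them, lower.

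With 2-HG, where Hif1a RNA did not change detectably, 6 of 17 target genes were higher and 2 lower, against 16.1% and 16.7% of all genes, with a median of 0.22 against -0.02. Ero1l rose from 158 ± 20.9 to 464 ± 40.9 RPM (1.55, limma adjusted p = 1.9e-05), Ndrg1, a stress-response gene, from 87.8 ± 3.32 to 196 ± 24.8 RPM (1.14), and Vegfa, the angiogenic growth factor, from 34.5 ± 2.98 to 58.2 ± 11.9 RPM (0.72). The other 3, named after their values were seen, were Ddit4, Ldha and P4ha2, of which the call of P4ha2 was lost in 4 of 6 fits without a library. Car9 was low in this experiment, at 2.77 ± 0.146 RPM without and 0.384 ± 0.135 RPM with 2-HG, or 139 and 18 reads in all (log2(RPM + 1) difference -1.45, limma adjusted p = 0.0001). It passed the filter only through 2-HG(-), which favors a difference. Kdm3a, a histone demethylase, fell by 0.40. The fall of Kdm3a was lost in 5 of 6 fits that left out a library, so that only 1 target gene was then lower in those 5. The difference between the experiments passed for 8 of 17 genes, against 39.4% of all genes. For 2 of these, P4ha2 and Kdm3a, the change was higher in 2MUT, and for 6 it was lower, where 19.9% and 19.5% of all genes were. Bhlhe40 (-1.45), Vegfa (-0.90) and Ddit4 (-0.89) lay at the far end. Without the first 2-HG(+) library these were -0.87, -0.74 and -0.67. For Car9 the ratio of mean RPM was 0.356 in 2MUT against Control and 0.138 in 2-HG(+) against 2-HG(-), and because the added 1 RPM understates the latter, the contrast on the log2(RPM + 1) scale is not read for this gene.

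The first 2-HG(+) library had the highest value of its group in 15 of the 17 target genes, whereas 26.8% of all 10384 genes tested were highest there. It was also the highest for Hif1a. Bhlhe40, for instance, had 216 RPM in it and 67.6 and 60.0 RPM in the others, and the highest 2-HG(-) library had 69.5 RPM. Vegfa was 71.7 RPM in it and 53.8 and 49.2 RPM in the others, all above the 3 2-HG(-) libraries. Without that library 6 target genes were still higher and 3 were lower, Adm being added, and the changes of Ero1l (1.48), Ndrg1 (1.04) and Vegfa (0.57) remained past the threshold. Bhlhe40 then differed by 0.083. Among the 43 subunit and list genes tested with 2-HG, 17 of 20 calls were also made without that library, and the 3 lost were those of Arnt, Epas1 (-0.46, limma adjusted p = 0.063) and Senp1. The 3 gained were those of Adm, Cul2 and Rack1 (0.50 against 0.40, limma adjusted p = 0.030 against 0.060). The changes of Crebbp, Os9, Cited2 and Ahr were then -0.63, -0.64, -0.40 and -0.51, the difference of Vhl was -0.11 and the change of the Epas1 to Hif1a ratio was -0.36. All 18 calls of a difference between the experiments, of 39 genes tested, were also made without it, and 2 more passed, Adm (1.08 against 0.72) and Bnip3 (0.46 against 0.34), named after their values were seen. What sets the library apart was not tested. The plot of target genes by library shows its position.

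**Figure D4:**
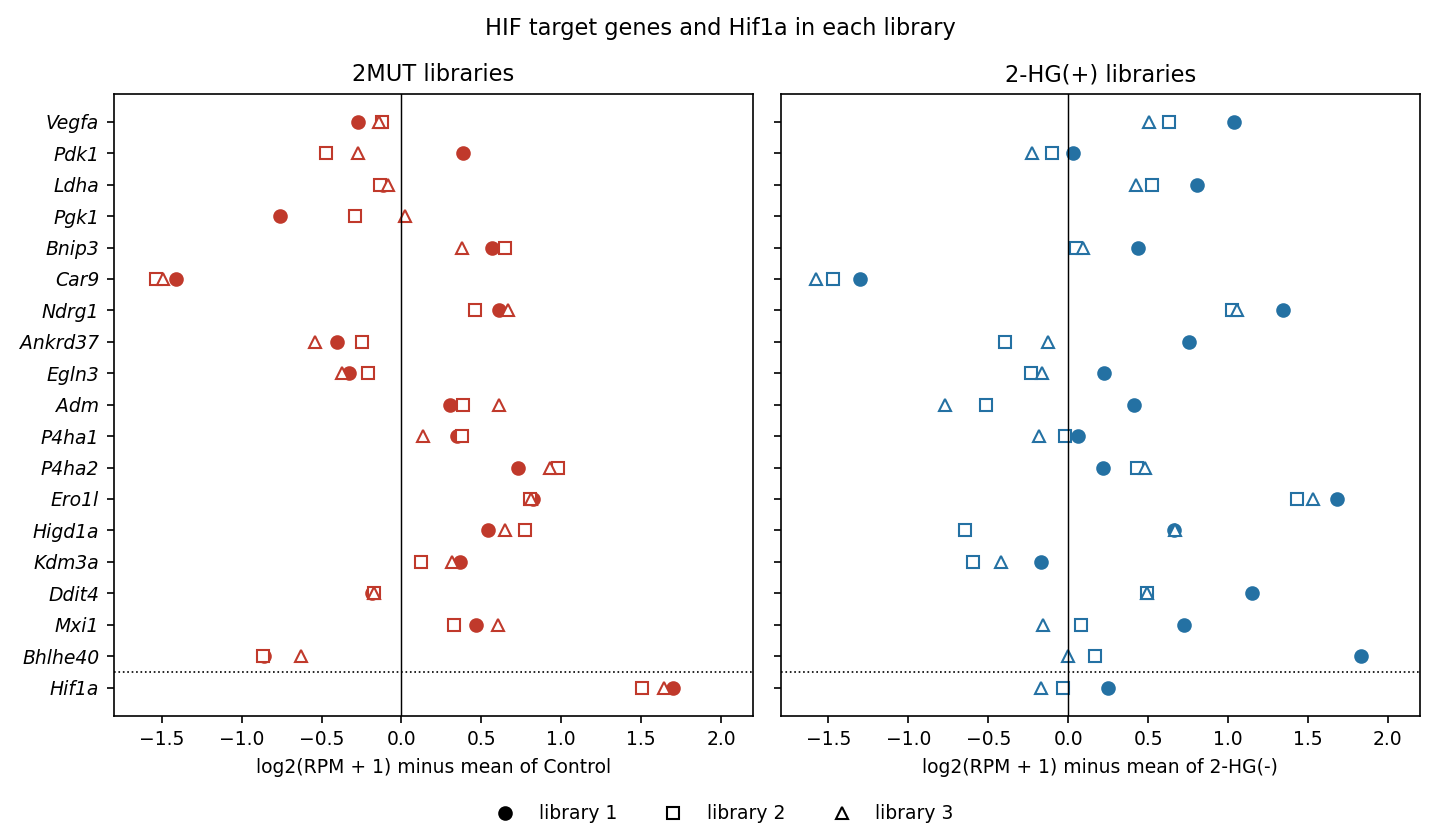
Log2(RPM + 1) of each HIF target gene and, under the dotted line, of Hif1a, in each 2MUT library minus the Control mean (left) and in each 2-HG(+) library minus the 2-HG(-) mean (right); filled circles are library 1, open squares library 2 and open triangles library 3, and Pgk1 is not listed in the 2-HG table. In the right panel library 1 lies at the upper end for 15 of 17 target genes and for Hif1a, and Car9 lies far below 0 in all libraries of both panels.

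The genes whose pattern over the 12 libraries, after each table's mean was taken off, was most like that of each subunit were found among 9593 genes tested in both experiments. The measure is Pearson's r of log2(RPM + 1), given as a description, since the libraries of a group share its condition. Hif1a was most like Ntn1 (0.99), which encodes the guidance factor netrin, and Cubn (0.99), an endocytic receptor. For Epas1 they were Stx4a (0.97) and Itpkb (0.96), for Arnt Pcolce (0.95) and Tspan4 (0.94), and for Arnt2 Pld3 (0.97) and Slc6a2 (0.97). Vhl had no close match, the nearest being Farp1 (0.85) and Vps52 (0.84). Ntn1 rose by 1.64 in 2MUT and had a difference of -0.05 with 2-HG. Among the subunits themselves, Arnt and Arnt2 had the highest r, 0.78, and Hif1a and Epas1 the lowest, -0.66.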

How the data were processed

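Expression was read from 12 RNA-seq libraries, 3 in each of 4 groups that the sample labels give. According to the methods and the submitters' processing notes, Ion AmpliSeq libraries, in which each gene is read from an amplicon, were aligned with TMAP to the AmpliSeq mouse transcriptome reference V1 and counted with the AmpliSeqRNA plug-in 5.2.0.3 of Torrent Suite 5.2.2. The authors deposited RPM, the reads of a gene per 1000000 reads on genes, in a separately normalized table for each experiment. Although the methods name 1 reference, the tables list 43280 and 23930 entries and share 20443 names. Some genes have different names in them, such as Gnb2l1 and Rack1. Whether both tables rest on the same reference was not tested. Whole reads were recovered for 100% of values (within 0.1 read), which gave the depths. 0 columns were left out.

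Fold changes were computed on log2(RPM + 1) with limma 3.58.1 in R 4.3.3, letting the variance follow the mean, for genes that averaged 1 RPM or more. Benjamini-Hochberg adjustment covered all genes tested, and a p-value under 0.05 passed. The difference of changes was a contrast over the 12 libraries. Names repeated in a table or turned into dates were left out of it. The ratio of Epas1 to Hif1a was tested by exact permutation with scipy 1.17.1. edgeR 4.0.16 and DESeq2 1.42.0 were run on the recovered reads. Other alternatives were an added 0.1 RPM, no filter, a filter at 10 RPM, median-of-ratios scaling, a test without moderation, a block for the replicate number, and fits that leave out 1 library. Simulated counts served to check the code. They gave every gene the same dispersion, so they do not measure error rates in these libraries.

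The genes and lists were chosen with earlier results of these data known. Named genes are all 6 members, all hydroxylase and Vhl ligase genes, list genes past the threshold (beyond 6 in a comparison, the 3 largest rises and falls) and the 2 genes most like each member. Ep300 is named beyond this rule in the test of the difference between the experiments. Slc2a1 was left out of the target genes because the study chose it on these libraries. Gene positions are from GENCODE M21 on GRCm38 and promoters from RefSeq on GRCm38.p6. The genome build behind the alignment reference, the positions of the amplicons, and whether counting used strand are not given in the sources used here.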

Additional observations from a re-analysis of the deposited data

Results flagged for a closer look

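Changes in the 2MUT experiment and in the 2-HG experiment differed for 3 of the 5 subunit genes tested, by the limma contrast over the 12 libraries, which 39.4% of all genes passed. For Hif1a the change in 2MUT minus that with 2-HG was 1.60 on the log2(RPM + 1) scale, with a rise in 2MUT and no change past the threshold with 2-HG. For Arnt it was 0.55, with a fall with 2-HG and no change past the threshold in 2MUT. For Arnt2 it was 1.84, with a rise in 2MUT and a fall with 2-HG. The experiments differ in the agent, in the length of exposure, in the vector and its selection, and in the table. What the differences rest on thus cannot be told apart. Since Control cells had the vector without IDH2, the mutation also cannot be told apart from the added IDH2.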

How the results depend on the processing

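Under settings other than a left-out library, 144 values kept their direction and side of the threshold or lay near the reported value, 9 moved and 6 lost a call. With a library left out these were 232, 26 and 12, and 6 changed sign. The rise of Arnt2 in 2MUT (0.55) did not pass without a filter (limma adjusted p = 0.080) or in the unmoderated test (0.061), nor did the fall of Arnt with 2-HG (-0.46, limma adjusted p = 0.15 and 0.11). The cause was not tested. The fall of Epas1 with 2-HG did not pass in DESeq2 (-0.85). Same-numbered libraries did not deviate together (correlations 0.07, 0.03 and 0.03 in the 2MUT experiment and -0.46, -0.16 and 0.06 in the 2-HG experiment). Between libraries of different numbers in the 2-HG experiment the correlations ran from -0.41 to 0.48. These values do not settle whether the libraries were paired by design. With the replicate number as a block, Epas1 with 2-HG (-0.48, limma adjusted p = 0.065) was the only subunit to lose its call. Genes called in 2MUT in the unmoderated test were 1021 higher and 1223 lower, and with 2-HG 1098 and 1139, or 941 and 1110 without a filter. With 0.1 RPM added, the Epas1 to Hif1a ratio changed by -2.78 and -0.82. Under median-of-ratios scaling 1 target gene was lower with 2-HG. The lists' alternatives, and the fits of list genes without the first 2-HG(+) library, were chosen after seeing the data. With each library left out, Hif1a with 2-HG ranged from -0.10 to 0.11, Vhl with 2-HG from -0.15 to 0.062, Arnt with 2-HG from -0.56 to -0.35, Arnt2 in 2MUT from 0.46 to 0.64 and Epas1 with 2-HG from -0.52 to -0.46. The difference for Epas1 ranged from -0.28 to 0.10, being above 0 without the third 2MUT library. Target genes lower with 2-HG ranged from 1 to 3. At 10 RPM Epas1 gave no value in either experiment, nor Arnt2 with 2-HG or in the difference. Epas1 rested on 15 to 85 reads a group.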
